A study of Mus musculus with 3 samples.

Results

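The cells described here are Ebf1-positive cells of mouse embryos at embryonic day 8.0 (E8.0) that also carried Foxl2 or Ebf2. Cells were chosen by their own measured counts. A cell was taken when it held at least 1 unique molecular identifier (UMI, a tag that counts single RNA molecules) of Ebf1 and at least 1 of Foxl2 and Ebf2 together, no UMI of Pax1, and under 50 UMIs per 10000 of the heart muscle genes Myl7, Tnnt2, Ttn and Myl4 together. Of the 3202 cells at E8.0, 399 met this rule (12.5%), out of 14777 cells in the series. They came from 3 mutant samples (215 cells) and 3 control samples (184 cells). They are called Ebf1 cells below. The name does not cover all Ebf1-positive cells, since 669 of the 2803 other E8.0 cells also held an Ebf1 UMI.

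All embryos carried Mesp1-Cre, which recombines floxed DNA in early mesoderm and its descendants, and Ai9, a reporter that makes recombined cells fluoresce red, on a C57BL/6 background. Controls were Wls fl/+ and mutants Wls fl/fl, so that the controls also had 1 floxed copy of Wls, the gene for the membrane protein that carries Wnt ligands to the cell surface for secretion. Red cells were sorted, tagged by sample with lipid barcodes (MULTI-seq), pooled and captured on the 10x Chromium platform. Each barcode sample (Bar25, Bar27 and Bar28 for mutants, Bar24, Bar26 and Bar29 for controls) is 1 replicate here, and all 6 were sequenced in the same run. The labels do not say how many embryos went into a barcode, so p-values measure the spread between these barcode samples. The Cre acts in the Mesp1 lineage, so that loss of Wls is confined by design to cells of that lineage.

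The 399 Ebf1 cells held 10855823 UMIs, with a median of 26265 per cell (6636 to 62689), against 26968 in the other E8.0 cells. The median was 24489 UMIs in mutant and 29064 in control Ebf1 cells. None of the 23 cell barcodes found in more than 1 run belonged to an Ebf1 cell, and 2 Ebf1 cells were called doublets. Y-linked transcripts summed to 127 to 138 CPM (a gene's UMIs in a sample divided by all UMIs of that sample and scaled to the same total in every sample) in all E8.0 cells of the mutants. In the controls they stood at 9.98 in Bar24, 8.55 in Bar26 and 70.7 in Bar29, where Xist was present too (66.1 CPM). Genotype and sex therefore cannot be told apart at E8.0 by a comparison within sex.

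Head mesoderm lies beside the forming brain, does not segment, and gives rise to muscles and part of the skeleton of the head. Further back, the paraxial mesoderm segments into somites, which express Meox1 and Tcf15, and Hox genes mark successive levels from the hindbrain to the tail. Ebf1, Ebf2 and Ebf3 encode related helix-loop-helix transcription factors of mesenchyme, B cells and neurons. Foxl2 encodes a forkhead factor known from the ovary and from tissue around the eye, Otx2 a homeodomain factor of the anterior head, and Fst the secreted activin inhibitor follistatin.

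The Ebf1 cells were set against the 2803 other E8.0 cells as a description with no test, because counts of these same cells chose them. Ebf1 stood at 264 ± 63.9 CPM in Ebf1 cells (SD, n = 6 barcode samples), against 22.2 ± 7.11 in the others. Foxl2 stood at 46.5 against 1.35 CPM and Ebf2 at 76.2 against 2.92. These 3 genes were part of the rule. Of the Ebf1 cells, 65 held exactly 1 Ebf1 UMI, 33 held 2 and 261 held 4 or more, and 113 held exactly 1 UMI of Foxl2 and Ebf2 together. Just outside the rule were 145 cells that lacked only Ebf1, 569 that lacked only Foxl2 and Ebf2, 20 with a Pax1 UMI (12 with exactly 1) and 5 over the heart muscle limit. The lowest of those 5 held 71.1 heart muscle UMIs per 10000, while the highest Ebf1 cell held 11.7.

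Fst and Otx2, which the rule did not read, were both higher in Ebf1 cells in all 6 samples. Fst stood at 466, 576 and 454 CPM in the Ebf1 cells of Bar25, Bar27 and Bar28, and at 404, 560 and 350 CPM in those of Bar24, Bar26 and Bar29. The other cells of these samples averaged at most 128 CPM per sample. Fst did not set the Ebf1 cells apart from every other cell type, since the 356 other E8.0 cells with a UMI of both Meox1 and Tcf15 (globin-rich and heart muscle cells left out) held 5071 of the 6814 Fst UMIs of the other cells. In those cells, pooled over samples, Fst stood at 581 CPM and was found in 90.4% of cells, against 475 CPM and 74.9% in the Ebf1 cells. Otx2 stood at 35.1, 23.8 and 46.5 CPM in the mutants and 43.7, 19.7 and 40.5 CPM in the controls, with Bar27 and Bar26 lowest in their genotypes. In the other cells it lay between 3.34 and 9.80 CPM. An Otx2 UMI was found in 46.1% of Ebf1 cells (exact 95% interval 41.1 to 51.2%, which covers counting error only) and in 7.28% of the others. In 475 globin-rich cells of the same samples, which should lack Otx2 and had a median of 32215 UMIs, the share was 1.26%. With every cell thinned to 5000 UMIs the shares were 14.5%, 2.25% and 0.421%.

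**Figure D1:**
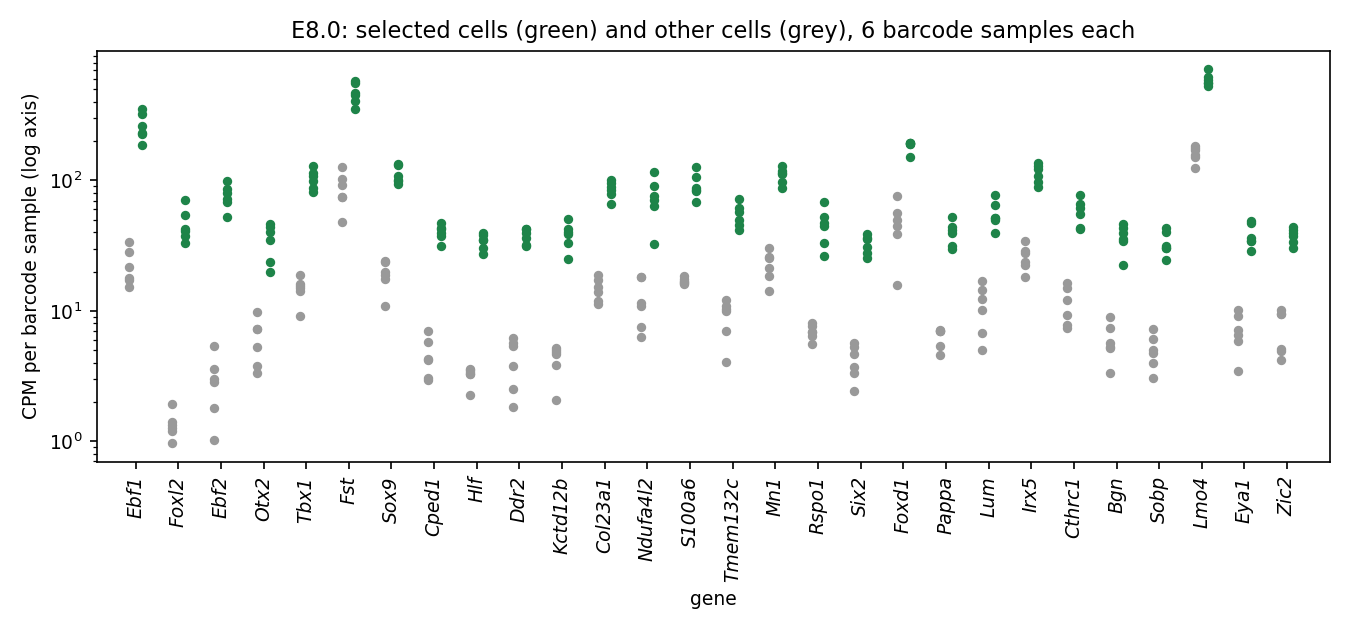
Levels in CPM, on a log axis, of Ebf1, Foxl2, Ebf2, Otx2 and 24 leading genes in the Ebf1 cells (green, titled selected cells) and the other E8.0 cells (grey), 1 point for each of the 6 barcode samples. Tbx1 averages 103 against 14.8 CPM and Lmo4 596 against 161 CPM, and the lowest green point lies above the highest grey one for each gene shown.

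Several of the leading 25 genes encode transcription factors or cofactors, and others encode matrix or secreted proteins. Eya1, which encodes a transcription cofactor of cranial muscle and sensory organs, stood at 38.2 against 7.02 CPM and the homeobox gene Six2 at 32.4 against 4.16 CPM. Tbx1, the T-box gene of pharyngeal mesoderm, stood at 103 ± 17.5 against 14.8 ± 3.24 CPM. Sox9, known from cartilage, stood at 111 against 19.1 CPM, Foxd1 at 186 against 46.8, Irx5 at 114 against 25.9 and the LIM-domain gene Lmo4 at 596 against 161. Rspo1, which encodes a secreted amplifier of Wnt signals, stood at 45.4 against 6.92 CPM. The small proteoglycan genes Lum (55.8 against 10.9) and Bgn (37.0 against 5.97) and Cthrc1 (57.5 against 11.3) belonged to the same leading 25, as did the collagen receptor gene Ddr2 (37.3 against 4.23). Cped1, Hlf, Kctd12b, Col23a1, Ndufa4l2, S100a6, Tmem132c, Mn1, Pappa, Sobp and Zic2 also belonged to it. The 10 lowest ratios were those of muscle genes such as Actc1 (25.5 against 821 CPM), Tnnc1 (8.10 against 212) and Acta2 (37.6 against 535), in a rule that kept heart muscle cells out.

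By list, 23 of 30 cranial mesoderm genes were higher in Ebf1 cells in all 6 samples, while 7.61% of the 31479 genes with a UMI were. That share counts every gene with at least 1 UMI, while 22 of the 30 list genes stood at 10 CPM or more in Ebf1 cells. The lists were chosen with earlier results of these data known, so the list counts here are a description. Beside those named, Foxc2 stood at 112 against 38.5 CPM, though at 224 CPM in the other cells with both Meox1 and Tcf15 (a Foxc2 UMI in 90.2%, against 75.4% of Ebf1 cells). On the same comparison with all other cells, Foxc1 stood at 107 against 30.4 CPM, Twist1 at 405 against 232 and Ebf3 at 31.0 against 6.14 (27.0 in the cells with both somite genes). Cyp26c1, which encodes an enzyme that breaks down retinoic acid, was low in both (7.35 against 0.399 CPM). Of 20 Hox genes, 17 were lower in Ebf1 cells in all 6 samples, against 7.95% of all genes. Hoxb1 stood at 8.46 against 42.1 CPM. Of 16 genes known to respond to low oxygen 9 were higher in all 6 samples, among them Pgk1 (1862 against 842 CPM) and Bnip3 (71.3 against 23.8). Of 16 matrix genes 10 were higher, among them Vcan (300 against 181 CPM), while Col1a1 (28.8 against 45.3) and Sparc (126 against 182) were lower.

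Markers of other cell types were also read. Of 10 lateral plate genes 9 were lower in Ebf1 cells in all 6 samples, and so were the 10 heart muscle genes, 4 of which the rule capped. Neural genes summed to 35.7 to 46.9 CPM per sample, of which Nes, which is not restricted to neural cells, gave 30.6 on average, while Sox2 stood at 3.03 and Sox1 at 0.182 CPM. Neural crest genes summed to 140 to 223 CPM, of which Sox9 gave 111, while Foxd3 stood at 2.86 and Sox10 at 0.989 CPM. All 22 Foxd3 UMIs came from the control Bar24, and Sox10 had 8 UMIs in all, too few to compare genotypes. Endothelial genes summed to 126 to 404 CPM in Ebf1 cells and 129 to 346 CPM in the others. Kdr stood at 88.9 ± 29.2 against 64.6 ± 26.5 CPM and Etv2 at 115 ± 72.0 against 74.8 ± 37.0 CPM, each higher in Ebf1 cells in 4 of 6 samples, while Cdh5 stood at 6.98 against 13.0 CPM and Tek at 3.69 against 13.9. Blood genes summed to 1372 to 6489 CPM in control and 1501 to 1613 CPM in mutant Ebf1 cells, against 5226 to 40180 CPM in the other cells. Leaving out the 2 Ebf1 cells that were rich in globin left all 5 genotype calls given below in place. That fit was identical to the one without the 2 called doublets, both of the control Bar26, so these are the same 2 cells.

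The label of cranial mesoderm held for part of the Ebf1 cells. Meox1 and Tcf15, the somite genes, were not part of the rule, and 115 of the 399 cells (28.8%) held 3 or more of their UMIs together. Of the 399 cells, 157 held Otx2 without that many Meox1 and Tcf15 UMIs, 88 held the somite genes without Otx2, 27 held both and 127 held neither. Meox1 stood at 66.8 CPM in Ebf1 cells and 44.5 in the others, and Tcf15 at 145 against 65.9. The rule therefore took in cells with the genes of somites beside cells with the head marker Otx2.

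The 2 ways into the rule differed in their share of cells with the somite genes. The rule let a cell in through Foxl2, through Ebf2, or through both, and 71 cells held Foxl2 only, 188 Ebf2 only and 140 both. Their median depths were 25110, 26203.5 and 28187 UMIs. Of the Ebf2-only cells 46.8% held 3 or more Meox1 and Tcf15 UMIs, of the Foxl2-only cells 14.1% and of the cells with both 12.1%. An Otx2 UMI was found in 30.9%, 53.5% and 62.9% of them. These shares pool cells over samples. In the gene test described below, Otx2 stood at 43.6 CPM in Foxl2-only and 23.7 CPM in Ebf2-only cells. It did not pass there (log2 0.92, edgeR adjusted p = 0.115). A UMI of the Hox paralogues 1 to 3 was found in 54.3% of Ebf2-only cells (46.8 to 61.5%) and 22.5% of Foxl2-only cells (13.5 to 34.0%), and in 14.9% of the globin-rich cells. After thinning to 5000 UMIs these 3 shares were 19.7%, 7.04% and 3.58%. For the Hox paralogues 4 to 9 the shares were 33.5% of Ebf2-only cells (26.8 to 40.7%) and 33.8% of Foxl2-only cells (23.0 to 46.0%), and 22.9% of the globin-rich cells. Thinned to 5000 UMIs, these were 11.7%, 12.7% and 4.0%, so both groups lay above the globin-rich cells.

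**Figure D2:**
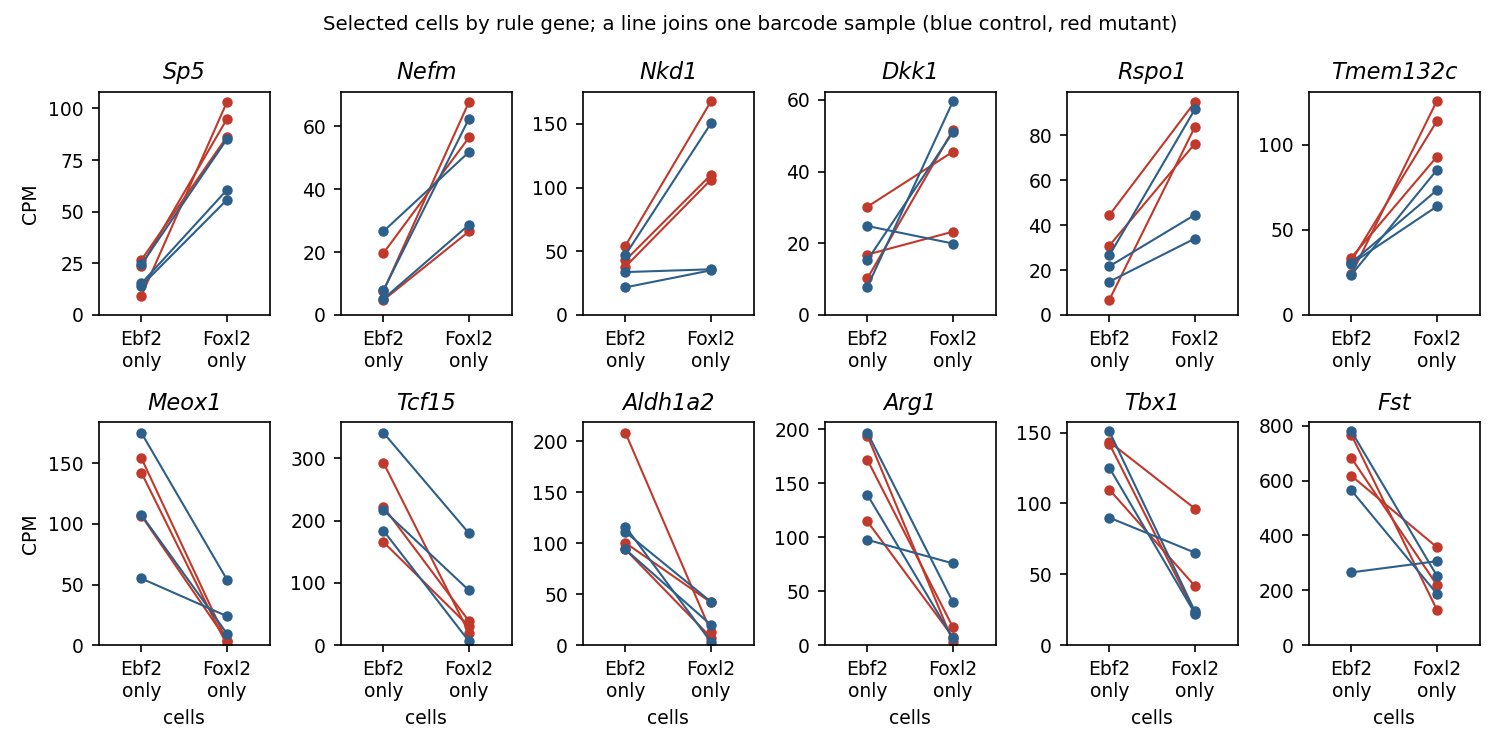
Levels in CPM of 12 genes in Ebf2-only and Foxl2-only Ebf1 cells, where a line joins the 2 groups of cells of 1 barcode sample (blue control, red mutant). Sp5, Nefm, Nkd1 and Tmem132c rise along every line and Meox1, Tcf15, Aldh1a2 and Tbx1 fall along every line, while Dkk1 falls in Bar24 and Fst rises in Bar29.

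Foxl2-only and Ebf2-only cells were then compared gene by gene, with Foxl2 and Ebf2 themselves left out and the barcode sample as a block. The 2 groups of cells come from the same samples, and the absence of a UMI does not show the absence of a transcript. Of 6142 genes tested, 75 were higher (1.22%) and 38 lower (0.619%) in Foxl2-only cells at an adjusted p under 0.05 (edgeR quasi-likelihood test, Benjamini-Hochberg), and 731 had an unadjusted p under 0.05. Without the 115 cells that held 3 or more Meox1 and Tcf15 UMIs, and without Bar24, which then kept 3 Foxl2-only cells, 23 genes were called, 18 of them among the 113. That alternative was added after the data were seen.

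Of the Wnt target genes, Sp5, Nkd1 and Dkk1 were higher in the Foxl2-only cells. Sp5, a zinc finger gene that is a direct target of Wnt signals, stood at 94.97, 103 and 86.4 CPM in the Foxl2-only cells of the mutants Bar25, Bar27 and Bar28 and at 55.8, 85.2 and 60.6 CPM in those of the controls Bar24, Bar26 and Bar29. In the Ebf2-only cells it lay between 9.35 and 26.7 CPM, so the groups did not overlap in any sample. The log2 difference was 2.12 (SE 0.23, edgeR adjusted p = 5.51e-05) and was 1.68 without the somite gene cells (adjusted p = 0.0118). Nkd1, a feedback inhibitor of the pathway, stood at 101 against 39.7 CPM (log2 1.33, adjusted p = 0.000378). Dkk1, a secreted inhibitor, stood at 41.9 ± 16.4 against 17.6 ± 8.57 CPM (log2 1.40, adjusted p = 0.0352), but was lower in the Foxl2-only cells of Bar24, and its call was lost without the somite gene cells (log2 0.68, adjusted p = 0.586). Of the 9 Wnt target genes tested these 3 were called and 7 had a positive difference, with a median of 0.38 against 0.00 for all genes. Axin2 (49.9 against 37.4 CPM) and Lef1 (49.3 against 35.1) did not pass. Rspo1 passed too, at 71.0 against 24.2 CPM (log2 1.60, adjusted p = 0.00227), a call that was lost without the somite gene cells (log2 1.26, adjusted p = 0.123).

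Other genes higher in Foxl2-only cells included Nefm, which encodes a neurofilament chain (49.0 against 11.9 CPM), the carbonic anhydrase gene Car4 (73.7 against 17.5), Tmem132c (92.5 against 29.0) and the myosin light chain gene Myl9 (102 against 34.2). Lum (96.0 against 38.0), Cthrc1 (90.8 against 34.4), S100a6 (130 against 51.9), Scube1 (49.0 against 18.7) and the zinc finger gene Zic2 (62.0 against 25.2) were higher as well. Without the somite gene cells Car4 (log2 1.92, adjusted p = 0.0714), Scube1 (1.34, 0.0930) and S100a6 (0.76, 0.221) no longer passed, against log2 2.14, 1.45 and 1.37 with them, while Tmem132c, Myl9, Lum and Cthrc1 did.

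The somite genes Meox1 and Tcf15 were lower in Foxl2-only cells. Meox1 stood at 3.80, 3.23 and 0 CPM in the Foxl2-only cells of the mutants and 23.9, 54.0 and 9.57 CPM in those of the controls, and between 55.0 and 175 CPM in the Ebf2-only cells. Its log2 difference was −2.95 (SE 0.36, edgeR adjusted p = 0.000166). Tcf15 fell from 237 to 60.5 CPM, and Aldh1a2, the enzyme gene of retinoic acid synthesis, from 121 to 21.4. Of the 4 somite list genes tested these 3 were called. Of 6 retinoic acid genes tested Aldh1a2 was called lower and Crabp1, a cytoplasmic retinoic acid binding protein gene, higher (log2 0.69, edgeR adjusted p = 0.000629), with a median of −0.04 over the 6. Arg1 (152 to 24.9 CPM) and Hotairm1 (50.7 to 9.35), a transcript of the Hoxa cluster, were lower too. From the cranial mesoderm list Tbx1 (127 to 45.4 CPM), Foxc2 (149 to 64.8), Six2 (41.8 to 14.3) and Prrx2 (382 to 239) were lower and Zic2 was higher, of 20 tested. Fst was also lower in the Foxl2-only cells (612 ± 189 to 242 ± 82.1 CPM, log2 −1.31, adjusted p = 0.0013), though in Bar29 it stood at 306 in Foxl2-only and 266 CPM in Ebf2-only cells. Without the somite gene cells Fst (log2 −0.93, adjusted p = 0.418), Foxc2 (−0.17, 0.908) and Tbx1 (−1.42, 0.0714) no longer passed, against log2 −1.31, −1.20 and −1.46 with them, and Epha4 and Meis2 did.

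The 250 bases before 1 start site each of Sp5, Dkk1 and Otx2 are shown. Sp5 and Dkk1 are Wnt targets that differed between the 2 groups of cells, and Otx2 is the head marker. They are RefSeq windows of build GRCm38.p6, 5′ to 3′ on the strand of the gene, at chr2:70474673-70474922 (plus strand), chr19:30549497-30549746 (minus) and chr14:48665110-48665359 (minus). Capitals mark CTTTGAT, a spelling of the TCF/LEF motif of Wnt effectors, in Sp5, CTTTGAA, another spelling, in Dkk1, and TAATCC, the motif of OTX and related homeodomain factors, read as GGATTA, in Otx2.
Sp5: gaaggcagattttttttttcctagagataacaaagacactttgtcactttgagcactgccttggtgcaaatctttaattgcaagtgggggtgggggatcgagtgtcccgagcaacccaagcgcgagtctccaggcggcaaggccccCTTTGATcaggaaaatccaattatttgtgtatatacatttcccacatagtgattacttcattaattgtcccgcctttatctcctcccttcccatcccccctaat
Dkk1: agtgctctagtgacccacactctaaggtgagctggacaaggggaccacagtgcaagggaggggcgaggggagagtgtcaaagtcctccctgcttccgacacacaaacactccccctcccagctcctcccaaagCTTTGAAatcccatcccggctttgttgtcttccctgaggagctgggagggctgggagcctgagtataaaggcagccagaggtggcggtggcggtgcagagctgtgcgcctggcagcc
Otx2: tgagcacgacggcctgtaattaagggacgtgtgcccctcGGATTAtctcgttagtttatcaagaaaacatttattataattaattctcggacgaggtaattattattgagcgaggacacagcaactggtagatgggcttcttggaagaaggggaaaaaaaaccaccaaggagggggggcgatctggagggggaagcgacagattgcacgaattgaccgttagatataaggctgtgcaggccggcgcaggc
The matches start 104, 117 and 211 bases before the start site of the window shown. Only windows with a match were kept for display. The Otx2 window lies inside the annotated gene (48657677 to 48673819, minus strand), so its start is not the most upstream one. Both strands of the windows from 250 bases before to 50 after the start were searched. Of the 75 genes higher in Foxl2-only cells 57 had a window, and 3 of these (5.26%) held CTTTGAA and 4 (7.02%) CTTTGAT, against 5.93% and 4.29% of all 27025 genes with a window. Of the genes higher in Ebf2-only cells 23 had a window, and 2 of these (8.70%) held CTTTGAA, while 0 held CTTTGAT. Among the leading or marker genes, the former was in 2 of 16 with a window (12.5%), Bgn and Ebf1. CTTTGAT was added after the Sp5 window had been read. TAATCC was found in 1 of these 16, Otx2, and in 8.14% of all genes. The palindromic EBF motif was found in 0 of these 16 and in 1.06% of all genes. A match is a run of letters, not a measured binding site.

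The genotypes were compared first by how many cells met the rule. The share of E8.0 cells was 15.1%, 12.6% and 12.1% in the mutants Bar25, Bar27 and Bar28 and 10.6%, 11.7% and 12.9% in the controls Bar24, Bar26 and Bar29. The groups overlapped, with means of 13.2 ± 1.57% and 11.7 ± 1.11% (SD, n = 3 each), and the difference of 1.51 percentage points had p = 0.3 in a two-sided exact permutation test (0.6 after adjustment over 4 shares, that of Foxl2 included), where 3 against 3 cannot go below 0.1. The share with a Foxl2 UMI, which the rule itself read, was 52.6 ± 7.23% of mutant and 54.6 ± 8.05% of control Ebf1 cells and is given as a description. The share with an Otx2 UMI was 46.5 ± 10.8% and 50.2 ± 15.4% (exact permutation p = 0.9). The share with 3 or more Meox1 and Tcf15 UMIs was 24.7 ± 7.29% and 34.7 ± 12.2% (exact permutation p = 0.3), lowest in the mutant Bar28 (19.1%) and highest in the control Bar24 (46.2%).

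**Figure D3:**
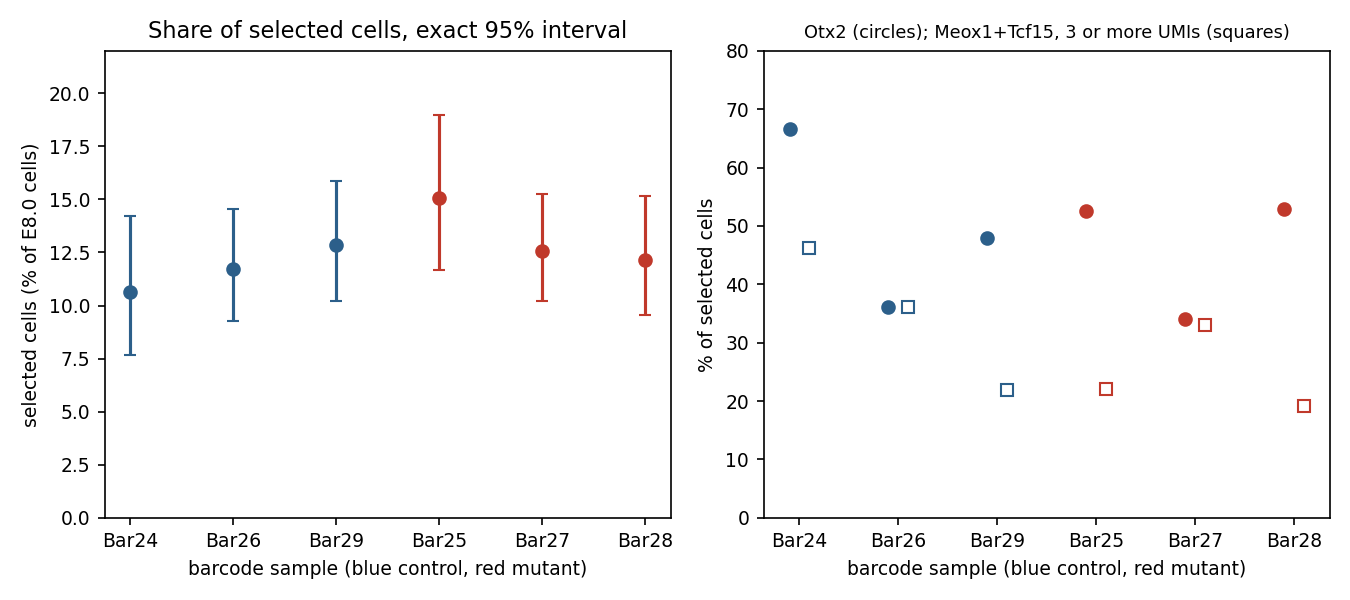
The first panel gives the percent of E8.0 cells that met the rule in each barcode sample (blue control, red mutant), with exact 95% intervals for counting error, and runs from 10.6 to 15.1%. The second gives the percent of Ebf1 cells with an Otx2 UMI (filled circles) and with 3 or more Meox1 and Tcf15 UMIs (open squares), where the genotypes overlap in both.

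Wls itself was nearly lost from mutant Ebf1 cells. It stood at 5.74, 4.57 and 4.40 CPM in Bar25, Bar27 and Bar28 and at 109, 73.7 and 81.0 CPM in Bar24, Bar26 and Bar29, so the genotypes were far apart. The log2 fold change was −4.16 (SE 0.24, edgeR adjusted p = 5.28e-06). The gene lies on the plus strand of chromosome 3 (159839672 to 159938664, GRCm38). In the other E8.0 cells it averaged 12.8 ± 4.51 CPM (mutants) and 54.1 ± 5.07 CPM (controls, n = 3 each). The genotype effect was larger in Ebf1 cells by 2.07 on the log2 scale (SE 0.26, edgeR adjusted p = 0.0107, barcode sample as a block), 1 of the 2 genes (0.0139%) of 14373 whose effect differed. That difference of effects no longer passed without Bar25 (adjusted p = 0.0528) or without Bar27 (0.205). Which of the other cells kept Wls was not tested.

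Beyond Wls, few genes differed between mutant and control Ebf1 cells. Of 10274 genes tested 5 passed (0.0487%), 4 lower and 1 higher in mutants. At an unadjusted p under 0.05 there were 729. DESeq2 called 11 genes, the 5 among them, and 170 were called with no filter on low counts. Xist, expressed from the inactive X chromosome of females, fell from 124 to 7.42 CPM, in samples whose sex differed as given above. A male share was also added to the model. It was the summed Y-linked CPM of a sample divided by the highest such sum among the E8.0 and E9.5 samples of the run. No cell was assigned a sex. With the male share 3 genes passed, of which Wls was the only one of the 5.

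**Figure D4:**
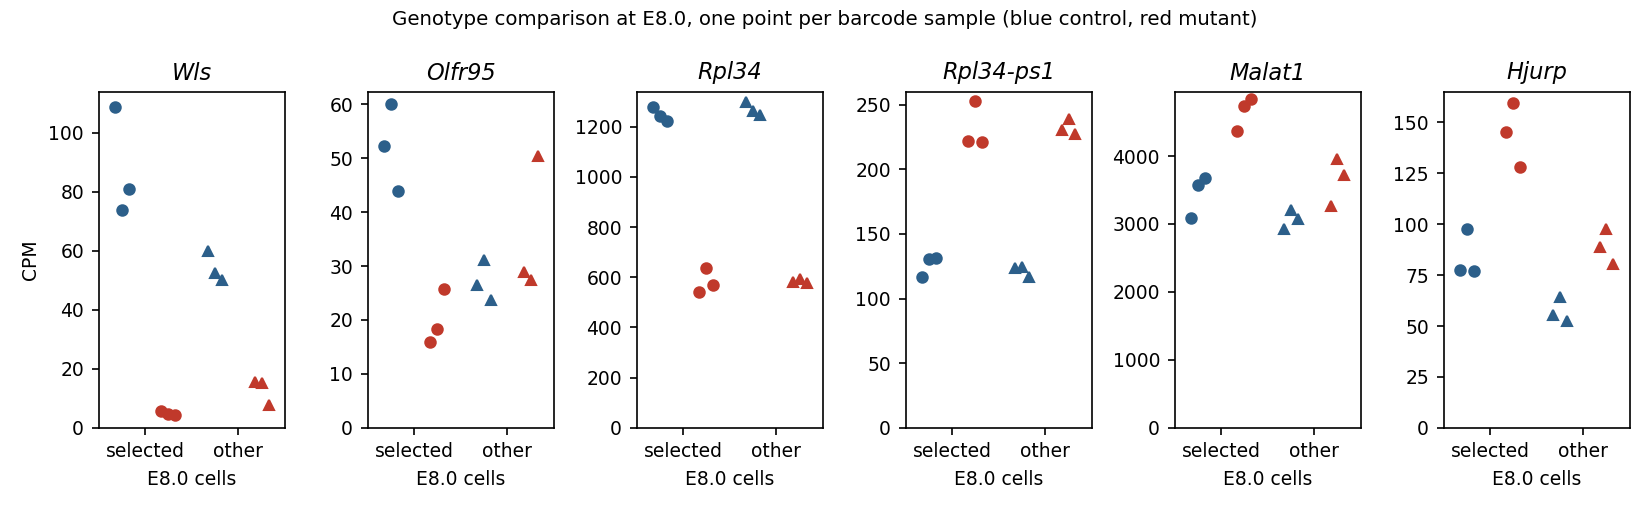
Levels in CPM of 6 genes in the Ebf1 cells (circles, labelled selected) and the other E8.0 cells (triangles), 1 point per barcode sample (blue control, red mutant). Wls lies between 4.40 and 5.74 CPM in mutant Ebf1 cells and between 73.7 and 109 CPM in control ones, and Olfr95 averages 20.0 against 52.1 CPM in Ebf1 cells and 35.6 against 27.1 CPM in the others.

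The other 3 genes that passed do not share a known role. Rpl34, a ribosomal protein gene on chromosome 3 (130726831 to 130730398), stood at 543, 636 and 571 CPM in the mutants and 1278, 1244 and 1221 CPM in the controls (log2 −1.13, SE 0.08, edgeR adjusted p = 1.89e-05). Its processed pseudogene Rpl34-ps1 moved the other way, from 126 ± 8.47 to 232 ± 18.1 CPM (log2 0.85, adjusted p = 0.00272). The 2 share near-identical sequence, so the split of reads between them is uncertain. Olfr95, annotated as an olfactory receptor gene, stood at 16.0, 18.3 and 25.8 CPM in mutants and 52.3, 60.1 and 43.8 CPM in controls (log2 −1.41, SE 0.20, adjusted p = 0.0248). In the other E8.0 cells it stood at 35.6 ± 12.8 and 27.1 ± 3.73 CPM, and the genotype effects differed by −1.72 on the log2 scale (SE 0.17, adjusted p = 0.00135). The call of Olfr95 in Ebf1 cells was lost without Bar25, Bar27, Bar24 or Bar26, each in turn, with 39 cells drawn per sample, with Ebf1 at 2 or more UMIs, and without the somite gene cells. In the last of these the log2 fold change was −1.40 (adjusted p = 0.417), as large as with those cells. With the male share in the model Rpl34 (log2 −1.04, adjusted p = 0.580), Rpl34-ps1 (0.70, 1.00) and Olfr95 (−0.66, 1.00) did not pass, and the part of sex in them cannot be told apart from that of genotype.

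Among genes that did not pass, Malat1 stood at 4651 ± 253 CPM in mutants and 3451 ± 318 in controls (edgeR adjusted p = 0.0671) and Hjurp, which loads the centromeric histone, at 144 ± 15.7 and 84.0 ± 11.7 CPM (0.0877). The endothelial gene Cldn5 stood at 14.8 ± 7.97 and 1.47 ± 1.43 CPM. Rps3a1 stood at 59.7 to 78.5 CPM in mutants, and at 1657, 73.2 and 814 CPM in the controls Bar24, Bar26 and Bar29. The Y-linked Kdm5d and Uty and the X-linked Utp14a and Pbdc1 were among the 10 with the smallest p, with Gm47882 and Gngt2.

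No Wnt target passed between genotypes. Sp5 stood at 48.5 ± 19.7 CPM in mutants and 42.4 ± 9.81 in controls, Axin2 at 39.6 ± 13.8 and 40.2 ± 6.29, Nkd1 at 68.4 ± 10.4 and 49.8 ± 24.6, and Lef1 at 44.3 ± 3.10 and 35.5 ± 9.53. Of the 11 tested 6 had a positive log2 difference, none had an unadjusted p under 0.05, and the median was 0.10 against 0.01 for all genes. The Wnt ligand gene highest in these cells, Wnt5a, stood at 27.7 ± 4.86 and 24.2 ± 8.27 CPM, while Wnt2, the ligand gene of heart and lateral mesoderm, stood at 4.54 CPM in Ebf1 cells against 77.3 in the others. Of the secreted antagonists, Frzb stood at 38.2 ± 8.13 and 53.2 ± 13.0 CPM and Sfrp1 at 101 ± 9.48 and 78.7 ± 7.70 (edgeR adjusted p = 0.660 and 0.644).

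The 26 cranial mesoderm genes tested gave no call, with 16 positive differences and a median of 0.08. The smallest adjusted p among them was 0.511. Matrix genes mostly had positive differences without passing. Of 15 tested, 14 had a positive log2 difference and 9 an unadjusted p under 0.05, with a median of 0.37 against 0.01 for all genes, and none passed (smallest adjusted p = 0.382). Col1a2 stood at 72.7, 84.1 and 98.0 CPM in mutants and 42.2, 55.8 and 61.0 CPM in controls, Col4a2 at 85.7 ± 6.60 and 62.5 ± 6.89, and Vcan at 331 ± 11.2 and 270 ± 19.5. Of the 14 low-oxygen genes tested 12 had a positive difference and none passed, with Ndufa4l2 at 92.5 ± 23.1 and 57.6 ± 22.3 CPM (adjusted p = 0.660).

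Cells that met the same count rule at E9.5 were compared with the Ebf1 cells within the same run, with genotype as a covariate. There were 813 such cells, 649 of them from the 2 controls Bar22 and Bar23 and 164 from the mutants Bar19, Bar20 and Bar21. Cells of 2 stages that meet a count rule need not be of 1 lineage. Of 11015 genes tested 619 were higher (5.62%) and 502 lower (4.56%) at E9.5 (edgeR, adjusted p under 0.05). The total was 671 without Bar22, 739 without Bar23 and 621 with 39 cells drawn per sample.

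Otx2 fell with stage. It stood at 19.7 to 46.5 CPM in the 6 samples at E8.0 and at 5.32 to 13.9 CPM in the 5 at E9.5, with no overlap (log2 −2.30, SE 0.28, edgeR adjusted p = 0.000101). Fgf8, a signal of the early pharynx, stood at 83.3 ± 9.01 CPM in controls and 60.9 ± 19.4 in mutants at E8.0 and at 5.63 ± 0.102 and 25.5 ± 12.8 CPM at E9.5. Sp5 (log2 −1.34, adjusted p = 0.00147) and Rspo1 (−1.41, 0.000802), both higher in Foxl2-only cells above, were lower at E9.5. So were Cer1 (4.55 CPM in controls at E8.0 and 0.121 at E9.5) and Lefty2, which encode secreted Nodal antagonists, the cardiac factor gene Nkx2-5 (14.9 and 1.01 CPM), Clu (36.7 and 4.15) and Igfbpl1 (43.1 and 5.67). Genes this low at E9.5 could have passed the filter on low counts through E8.0 samples, so these falls are a description.

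**Figure D5:**
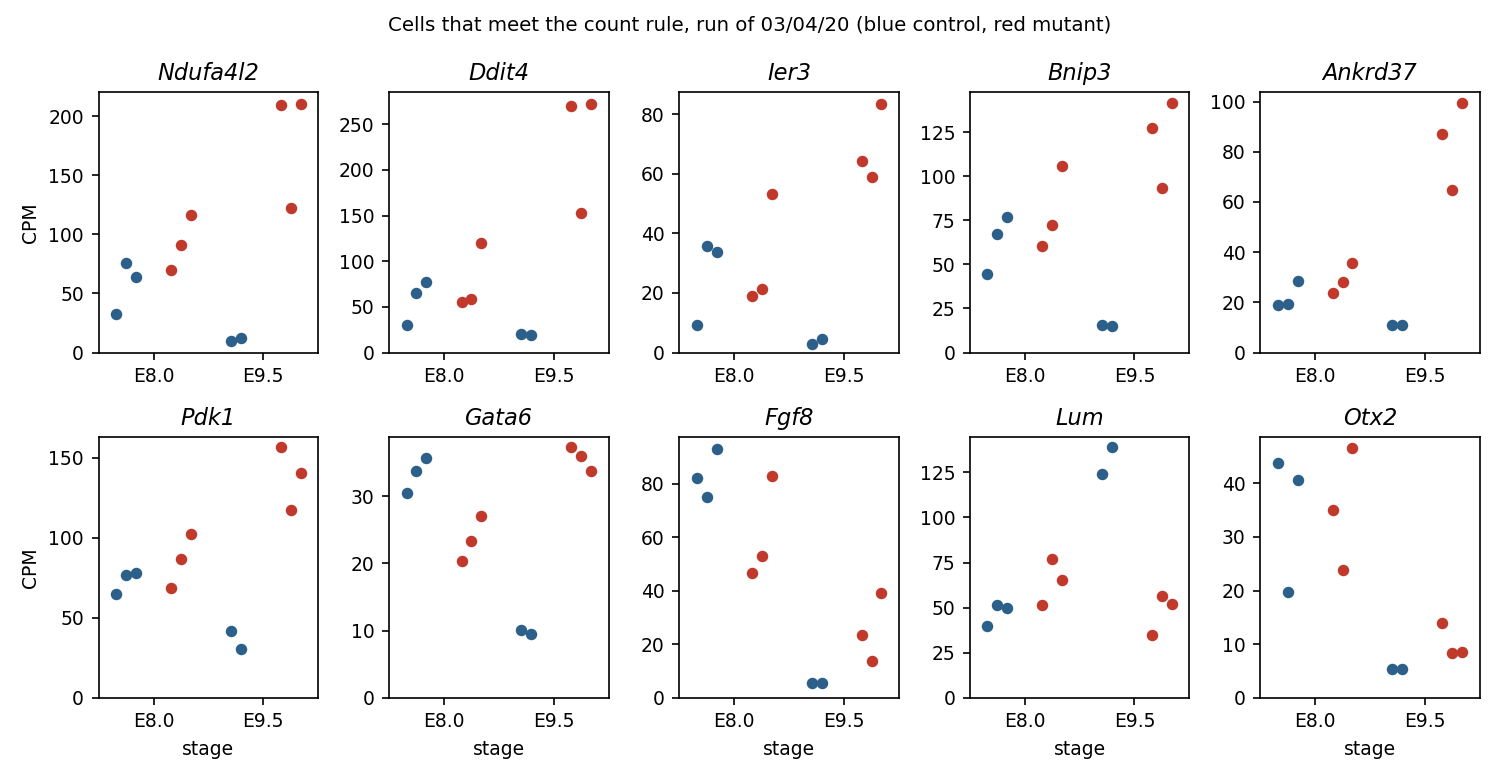
Levels in CPM of 10 genes in cells that met the count rule at E8.0 and E9.5, 1 point per barcode sample of the same run (blue control, red mutant). Ndufa4l2 stands at 122 to 210 CPM in the E9.5 mutants and at 10.0 and 12.6 CPM in the E9.5 controls, and Otx2 lies at 19.7 to 46.5 CPM at E8.0 and 5.32 to 13.9 CPM at E9.5.

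Of the genes tested, 7 of 9 Hox and 9 of 16 matrix genes were higher at E9.5. In the fit of the E8.0 samples alone only 3 Hox genes passed the filter on low counts. Others could thus enter through E9.5 samples where they were high, so the Hox count is a description only. Col3a1, a fibrillar collagen gene, stood at 27.3 to 84.2 CPM at E8.0 and 189 to 430 CPM at E9.5 (log2 2.81, SE 0.25, adjusted p = 1e-05). Of 16 matrix genes 9 were higher and 2 lower, with a median of 0.58 against 0.00 for all genes, and without Bar22 5 were higher. Cxcl12, the ligand of the receptor Cxcr4, rose from 29.8 ± 8.10 to 182 ± 28.1 CPM in controls and from 37.8 ± 8.76 to 201 ± 40.1 in mutants. Parm1 (6.98 to 98.0 CPM in controls), Dnm3os (2.73 to 28.4), which hosts microRNAs of mesenchyme, and Igf1 (3.26 to 37.1) rose too. Dnm3os and Igf1, this low at E8.0, could also have entered through E9.5 samples, so their rises are a description only. The other 11 of the 20 Hox genes did not pass the filter on low counts. Among the 7 called was Hoxb4 (3.09 ± 2.20 to 12.4 ± 0.713 CPM in controls, log2 2.23, adjusted p = 0.000109). The number called lay between 3 and 6 in several fits that left out 1 sample. Of 26 cranial mesoderm genes 9 were higher, among them Twist2 (log2 1.15), Alx4 (1.29) and Foxd1 (0.51), and 4 were lower, among them Alx1 (−1.30) and Eya2 (−0.73).

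The genotype effect at E9.5 was compared with that at E8.0 as an interaction. Of 11015 genes 85 had a more positive effect at E9.5 (0.772%) and 20 a more negative one (0.182%). Of the 16 low-oxygen genes 13 were among the 85, with a median difference of 2.43 on the log2 scale against 0.01 for all genes. The list was chosen with earlier results of these data known, so this count is a description. In the fit of the E8.0 samples alone 14 of these genes passed the filter on low counts. Markers of lateral plate and heart field cells also had mostly positive differences. Of 9 lateral plate genes tested 8 had a positive difference and 1 was called, with a median of 2.24, and of 9 second heart field genes 8 were positive and 2 called (Fgf8 and Hoxb1), with a median of 1.34. Only 5 lateral plate genes passed the filter on low counts in the fit of the E8.0 samples alone. Others could enter through E9.5 samples where they were high, so the lateral plate sign count and median are a description. Gata6, a zinc finger gene of lateral plate and heart, had the smallest adjusted p of all genes (log2 2.44, SE 0.23, edgeR adjusted p = 0.000264). It stood at 37.4, 36.0 and 33.8 CPM in the E9.5 mutants Bar19, Bar20 and Bar21 and at 10.0 and 9.47 CPM in the controls, against 23.6 ± 3.31 and 33.3 ± 2.68 CPM at E8.0. The part of such cells in the low-oxygen result was not tested. Ndufa4l2, a subunit-like gene induced in low oxygen, stood at 210, 122 and 210 CPM in the E9.5 mutants Bar19, Bar20 and Bar21 and at 10.0 and 12.6 CPM in the controls, while the E8.0 genotypes overlapped at 70.2 to 116 and 32.8 to 76.0 CPM (log2 3.41, SE 0.39, edgeR adjusted p = 0.000704). The stress gene Ddit4 stood at 232 ± 68.3 CPM in E9.5 mutants and 20.2 ± 0.683 in controls, against 77.7 ± 36.7 and 57.8 ± 24.5 at E8.0. The mitophagy gene Bnip3 stood at 121 and 15.5 CPM at E9.5 and at 79.7 and 62.9 at E8.0.

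Fgf8 also differed, with a genotype effect that was 2.66 higher at E9.5 (adjusted p = 0.00483), and Lum went the other way (−1.87, adjusted p = 0.00178), at 47.6 ± 11.4 CPM in E9.5 mutants and 131 ± 10.8 in controls. Wls did not (0.21, SE 0.64, adjusted p = 0.924). The mutants Bar19 and Bar21 and neither control of E9.5 had male levels of Y-linked transcripts. With the male share as a covariate 172 genes were called, with the 105 among them. The E9.5 mutants gave 51 to 58 cells a sample and the controls 320 and 329, and with 39 cells drawn from each sample 14 genes were called, 4 of them of the low-oxygen list. Without Bar22 or without Bar23, which leaves 1 control at E9.5 that is assumed to vary like the other groups, 31 and 32 genes were called, and without Bar20 284.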

How the data were processed

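The matrix that the authors deposited gives whole UMI counts for 51923 genes in 14777 cells, and the deposited cell table gives run, barcode, stage and condition. Per the labels, the authors mapped reads with kallisto|bustools (bustools 0.46.1 in the submitters' processing notes) in its 10x v3 setting and split the MULTI-seq barcodes. Filters on cells and the use of strand are not given in the sources used here. The counts of the selected cells were summed per barcode sample and compared by the quasi-likelihood F test of edgeR 4.0.16 under R 4.3.3 (two-sided, genes kept by filterByExpr, TMM scaling, Benjamini-Hochberg at 0.05). Descriptive log2 ratios had 5 CPM added to both sides. Shares were compared with exact permutation tests. Doublets were called with Scrublet in scanpy 1.11.5, which marked 77 cells (0.521%), and were kept. That share is low and the caller marked few cells per run, so doublets may remain. Positions came from GENCODE M21 (GRCm38).

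The named genes were the 25 highest and 10 lowest ratios, Wls, and for each test the 15 largest calls per direction, or, with under 10 calls, also the 10 smallest p. List genes were named when called or at 20 CPM or more. The Foxl2-only against Ebf2-only fit was tested on simulated data beforehand, like the others. The selected cells and the lists were chosen with earlier results of these data known. The alternatives were DESeq2 1.42.0, its size factors, no filter on low counts, each sample left out, other cut-offs of the rule, 39 cells per sample and the male share as a covariate. Some genes that the rules name are not reported here.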

Additional observations from a re-analysis of the deposited data

Results flagged for a closer look

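The results below are differences between genotype effects that passed a test of the difference itself. Between E9.5 and E8.0, 85 genes had a more positive genotype effect at E9.5 and 20 a more negative one, and 13 of the former were low-oxygen list genes. That list was chosen with earlier results of these data known. The log2 differences of the 15 largest positive calls were 4.47 for Bhlhe40, 4.07 for Ier3, 3.60 for Stc2, 3.51 for Car9, 3.41 for Ndufa4l2, 3.22 for Ddit4, 3.18 for Stc1, 2.88 for Egln3, 2.73 for Tnc, 2.71 for Bnip3, 2.68 for Tbx3, 2.66 for Fgf8, 2.60 for Ankrd37, 2.58 for Vldlr and 2.55 for Slc7a5. Ier3, an early stress response gene, stood at 69.0 ± 12.9 CPM in E9.5 mutants and 3.85 ± 1.16 in E9.5 controls, against 31.3 ± 19.1 and 26.3 ± 14.7 at E8.0. The 15 largest negative differences were −4.89 for 4930417O13Rik, −1.87 for Lum, −1.52 for Tril, −1.46 for Exosc2, −1.46 for Ndst1, −1.33 for Pik3r1, −1.20 for Nt5c2, −1.10 for N6amt1, −1.07 for Foxd2os, −1.004 for Mcat, −0.98 for Hmgcs1, −0.97 for Slc35b1, −0.91 for Map4, −0.82 for Itpa and −0.78 for the mitochondrial mt-Cytb. Between Ebf1 cells and the other E8.0 cells, the genotype effect was more negative in Ebf1 cells by 2.07 for Wls (a log2 difference of −2.07) and by 1.72 for Olfr95 (−1.72).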

How the results depend on the processing

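No paired analysis was possible between genotypes because the barcode samples carry no shared replicate numbers. For 1628 values of single genes under an alternative, 1335 kept their direction and side of the threshold, 247 lost and 42 gained the threshold and 4 changed sign. Those 4 were Kdm5d (−0.22), Uty (−1.47) and Pbdc1 (0.10) between genotypes with the male share as covariate, and the difference of the Wls genotype effect between stages, 0.21 with all samples (−0.85 without Bar19, 0.54 without Bar21, the range over samples left out).

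Between genotypes 5 genes were called in Ebf1 cells, against 11 with DESeq2, 170 with no filter, 3 with the male share and 4 to 12 without each sample. The 2 genes whose effect differed from the other cells became 77 with no filter and 1 to 4 without each sample. The difference in the share of Ebf1 cells kept its sign under each alternative.

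Between Foxl2-only and Ebf2-only cells 113 calls became 54 with DESeq2, 315 with no filter, 71 to 129 without each sample and 23 without the somite gene cells. Lower somite genes numbered 6 with no filter and 0 without the somite gene cells. Higher cranial genes numbered 1 without Bar27, the lowest of the fits without a sample, whose highest was 2, and 1 without the somite gene cells, where lower ones numbered 0.

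Between stages 1121 calls became 1682 with no filter (7 lower cranial genes), 671 to 1142 without each sample and 621 with 39 cells per sample. Higher Hox genes numbered 3 to 6 without each sample, 4 with the male share and 3 with 39 cells. Higher matrix genes numbered 5 to 10 without each sample and 5 with 39 cells, and lower cranial genes 2 with 39 cells. The 105 calls on the difference of genotype effects between stages became 188 with DESeq2, 474 with no filter, 31 to 284 without each sample, 172 with the male share and 14 with 39 cells. Low-oxygen genes numbered 8 to 15 without each sample and 4 with 39 cells. Other causes of these shifts were not tested. The alternatives on somite gene cells, and between stages on male share and 39 cells, were added after the data were seen.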

Other observations

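Cells that met the same count rule made up a smaller share of mutant than of control samples at E9.5. Over samples of at least 20 cells in all runs, the share was 5.92 ± 1.58% in 6 mutants (3.51 to 7.53%) and 14.3 ± 3.68% in 5 controls (10.0 to 18.6%), without overlap (two-sided exact permutation p = 0.00433). The order was the same within each run. In the run that also held the E8.0 samples the mutants lay at 6.71 to 7.53% and the controls at 17.7 and 18.6%, in the first run of October 1 mutant of 57 cells lay at 3.51% and 1 control at 10.0%, and in the second the mutants held 14 such cells of 280 (Bar10) and 5.36% (Bar8) and the controls at 12.2 and 13.1%. This comparison was made after the data were seen. The permutation did not keep samples within runs. The rule can be met by single UMIs, and the mutants were also shallower in each run. In the run of the E8.0 samples the medians were 18310.5, 21308.5 and 18088.5 UMIs per cell in mutants, against 21991 and 22668 in controls. They were 14710 against 24431 in the first October run, and 9759.5 and 10871.5 against 13382 and 12386 in the second. No share at equal depth was made at E9.5, so the part of depth was not tested. At E8.5, with 1 mutant sample, the shares were 9.86% in the mutant Bar1, 12.1% in the control Bar3 and 5.88% in the control Bar2, which held 34 cells, with no test and no common order.

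In the stage comparison Hoxb4 stood at 37.4, 35.1 and 42.3 CPM in the E9.5 mutants and at 12.9 and 11.9 CPM in the E9.5 controls, but its genotype effect did not differ between stages by the test (log2 0.64, edgeR adjusted p = 0.675). Hoxb1 did (log2 1.81, adjusted p = 0.0340), at 21.7 CPM in E9.5 mutants and 7.91 in controls against 7.71 and 9.22 CPM at E8.0.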
